A study of Mus musculus with 8 samples.

Results

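Transcripts of 61 kinesin, centromere and mitotic kinase genes, read by 117 probes, were followed across 4 mouse cell populations on a 1-colour Agilent array that reads 27670 named genes with 41174 probes. The genes were chosen by name: every probe whose gene name began with Kif or Kifc, Cenp, Aurka to Aurkc, Bub1 or Bub3, or Plk1 to Plk4. They comprised 13 mitotic kinesins, 15 transport kinesins, 7 kinesins of cilia, signalling or other roles, 14 centromere proteins and 10 mitotic kinases and Bub checkpoint genes. The name rule also caught 2 genes of other roles, Cenpj and Aurkaip1.

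The populations were OM2i-iPSC, PM2i-iPSC, embryonic stem (ES) cells and mouse embryonic fibroblasts (MEF), each measured on 1 array of total RNA. OM2i-iPSC were obtained from MEFs given a combination of agents that included an oxysterol and then 2i/LIF, and PM2i-iPSC from MEFs given a combination that included purmorphamine and then 2i/LIF. The ES cells came from blastocysts of the 129/Ola background, and the MEFs came from embryos. Oxysterols and purmorphamine are agonists of Smoothened, the signal transducer of the Hedgehog pathway, and 2i/LIF is a medium of kinase inhibitors and a cytokine that keeps mouse stem cells undifferentiated. The other agents of the combinations, the strain of the MEFs and whether a preparation was 1 clone are not stated in the labels used here. Each group was 1 array, so no test, p-value or replicate error could be had, and every difference below is a description of these arrays.

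The labelled cell types were checked against markers. The median level of 8 ES marker genes was 3.81 in OM2i-iPSC, 4.15 in PM2i-iPSC and 4.02 in ES, against -4.12 in MEF, where all 8 were still well above background. The median of 8 fibroblast markers was -3.0, -1.88 and -2.28 in OM2i-iPSC, PM2i-iPSC and ES, against 3.03 in MEF. Levels here and below are log2 of the processed signal relative to the 75th percentile of the array, so 0 is that percentile. Levels of different probes are not comparable with each other, and a gene's level is that of its brightest probe unless another is named. The MEF array lay on a slide of its own, was scanned on another day and was extracted with another software version, so for every comparison with MEF the slide and the cell type cannot be told apart. ES and PM2i-iPSC shared a slide, and OM2i-iPSC lay on the third. Of the spots, 66.3%, 63.4%, 66.9% and 72.8% were well above background in OM2i-iPSC, PM2i-iPSC, ES and MEF. A probe spotted several times on an array had an SD of 0.134 to 0.215 between its spots, which gives 0.268 for a difference between arrays and covers spot error only.

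Kinesins are motor proteins that walk along microtubules. Mitotic kinesins build the spindle, move and align chromosomes and complete cell division, whereas transport kinesins carry vesicles, organelles and RNA in interphase cells and above all in neurons. Centromere proteins mark the site on each chromosome where the kinetochore forms and hold it to spindle microtubules. Aurora, Polo-like and Bub kinases order these events and delay anaphase until every chromosome is attached. Transcripts of most mitotic genes peak late in the cell cycle, and the cell cycle genes homology region (CHR, usually TTTGAA or TTCGAA) together with upstream CCAAT boxes is a known arrangement in promoters of that class. Mouse ES cells divide rapidly with short gap phases.

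Promoters of 6 members are shown first, as examples of where these motifs lie. All but that of Plk2 hold both motifs, as 50% of mitotic kinesin promoters do, and those of Kif18a and Kif2a hold neither. No transport kinesin is among the 6. The promoters run from 250 bases before to 50 bases after the RefSeq start, from the RefSeq table for GRCm38.p6, and read in the direction of the gene. Capitals mark the CHR and CCAAT motifs on either strand, so a CHR motif can appear as TTCAAA and a CCAAT box can appear reversed and complemented, as ATTGG. Kif11, the motor that pushes spindle poles apart, lies at chr19:37376132-37376431 on the plus strand and holds a CCAAT box at -45 and a CHR motif at -19 from the start. Kif22, a motor that binds chromosome arms, lies at chr7:127042371-127042670 on the minus strand with CCAAT boxes at -233 and -54 and CHR motifs at -215 and -17. Kif23, a motor of the central spindle in cytokinesis, lies at chr9:61946750-61947049 on the minus strand with a CCAAT box at -7 and a CHR motif at 3. Bub1, a kinase of the spindle checkpoint, lies at chr2:127831810-127832109 on the minus strand with CCAAT boxes at -68 and -42 and a CHR motif at 15. Plk1, the Polo-like kinase of mitotic entry and spindle assembly, lies at chr7:122159185-122159484 on the plus strand with a CCAAT box at -14 and a CHR motif at 31. Plk2, a Polo-like kinase first described as serum-inducible, lies at chr13:110394794-110395093 on the plus strand and holds neither motif in this window.
Kif11: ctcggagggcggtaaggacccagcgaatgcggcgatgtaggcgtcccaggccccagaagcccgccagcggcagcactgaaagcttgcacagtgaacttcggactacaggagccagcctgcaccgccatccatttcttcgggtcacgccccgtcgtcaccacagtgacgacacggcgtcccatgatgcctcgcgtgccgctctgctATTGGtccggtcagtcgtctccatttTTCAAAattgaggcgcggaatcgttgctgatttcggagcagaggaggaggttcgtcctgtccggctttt
Kif22: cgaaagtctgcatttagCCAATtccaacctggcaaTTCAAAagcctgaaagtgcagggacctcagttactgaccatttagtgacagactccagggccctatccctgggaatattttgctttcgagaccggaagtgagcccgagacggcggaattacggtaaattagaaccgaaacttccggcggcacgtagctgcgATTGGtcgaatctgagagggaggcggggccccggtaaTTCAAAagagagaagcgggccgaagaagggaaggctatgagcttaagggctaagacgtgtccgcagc
Kif23: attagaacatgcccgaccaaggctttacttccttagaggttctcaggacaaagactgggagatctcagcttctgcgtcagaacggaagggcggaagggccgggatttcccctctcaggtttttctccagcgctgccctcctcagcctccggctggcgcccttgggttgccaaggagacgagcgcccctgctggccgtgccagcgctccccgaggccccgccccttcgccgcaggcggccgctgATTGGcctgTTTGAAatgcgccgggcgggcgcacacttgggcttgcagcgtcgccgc
Bub1: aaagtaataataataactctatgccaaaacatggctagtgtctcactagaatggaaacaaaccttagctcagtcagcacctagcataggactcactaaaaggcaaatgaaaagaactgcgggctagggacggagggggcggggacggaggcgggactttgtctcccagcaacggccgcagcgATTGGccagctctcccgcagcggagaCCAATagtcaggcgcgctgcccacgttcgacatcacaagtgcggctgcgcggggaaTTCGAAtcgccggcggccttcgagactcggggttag
Plk1: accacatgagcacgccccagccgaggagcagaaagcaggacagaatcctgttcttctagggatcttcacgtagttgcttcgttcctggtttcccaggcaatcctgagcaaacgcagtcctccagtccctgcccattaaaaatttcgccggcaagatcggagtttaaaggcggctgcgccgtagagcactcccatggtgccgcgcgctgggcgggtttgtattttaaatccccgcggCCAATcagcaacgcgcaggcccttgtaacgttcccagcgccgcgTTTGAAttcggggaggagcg
Plk2: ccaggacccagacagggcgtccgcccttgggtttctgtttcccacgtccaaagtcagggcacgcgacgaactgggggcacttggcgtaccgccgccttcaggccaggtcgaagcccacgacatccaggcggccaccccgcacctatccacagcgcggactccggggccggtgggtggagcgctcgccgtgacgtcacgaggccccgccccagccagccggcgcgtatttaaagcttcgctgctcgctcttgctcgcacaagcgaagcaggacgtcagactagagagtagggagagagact

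RefSeq promoters were matched for 51 of the 61 genes, and a gene with several RefSeq starts has several promoters in these shares, which can overlap. TTTGAA or TTCGAA stood on either strand in 8 of 12 promoters of mitotic kinesins (66.7%) and in 1 of 12 promoters of transport kinesins (8.33%), beside 19.2% of the 32851 promoters of the table. The share was 60.0% of the 10 promoters of mitotic kinases and Bub genes, 25% of the 16 promoters of centromere proteins and 61.1% of the 36 promoters of a list of other mitotic genes. CCAAT was found in 58.3% of mitotic kinesin promoters, 33.3% of transport kinesin promoters, 75% of centromere protein promoters and 70.0% of kinase and Bub promoters, beside 37.4% of all promoters. Both motifs together were present in 50% of mitotic kinesin promoters and in 0 of 12 transport kinesin promoters, beside 7.52% of the table. These are letter matches, and no factor was measured at them. The given strand alone held TTTGAA or TTCGAA in 33.3% of mitotic kinesin promoters, 8.33% of transport kinesin promoters and 11.6% of all promoters.

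By the brightest probe of each gene, most mitotic members read higher in the pluripotent populations than in fibroblasts, whereas transport kinesins went both ways. This contrast was narrower in PM2i-iPSC than in ES. With the mean over all probes of a gene it narrowed in ES and was not settled in PM2i-iPSC. A member was counted as higher or lower when its signal differed by 2-fold or more. Of the 61 genes, 57 gave a fold or a bound in ES against MEF, and 36 were higher in ES, 5 lower and 16 within 2-fold. By the same count 36.4% of all genes of the array were higher and 24.2% lower in ES, 60.6% together, so the arrays differed widely and the count of members is read against that. In PM2i-iPSC against MEF 39 of 56 members were higher and 7 lower, where the shares over all genes were 37.7% and 26.1% (63.8% together). In OM2i-iPSC against MEF 36 of 58 were higher and 11 lower, where the shares over all genes were 40.0% and 25.4% (65.3% together). With each array centred on its median in place of its 75th percentile, the same counts were 29 higher and 9 lower for ES, 27 and 10 for PM2i-iPSC and 24 and 11 for OM2i-iPSC, and with quantile normalization 40 and 6 for OM2i-iPSC. Of the 2-fold calls over all genes, median centring put 44.3%, 43.1% and 43.6% on the higher side in ES, PM2i-iPSC and OM2i-iPSC. Scaled to the 75th percentile these were 60.1%, 59.0% and 61.2%, and with quantile normalization 57.1% in OM2i-iPSC. The 3 comparisons share the MEF array. In bulk RNA a change in the share of dividing cells and a change in RNA per cell cannot be told apart.

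At 4-fold, 22 members were higher and 3 lower in ES against MEF, with 21.9% and 11.9% over all genes. The counts were 19 and 2 in PM2i-iPSC against MEF (24.1% and 13.0% over all genes) and 21 and 1 in OM2i-iPSC against MEF (26.6% and 12.4%). The median log2 difference over all members was 1.48 in OM2i-iPSC, 1.58 in PM2i-iPSC and 1.60 in ES against MEF, where all genes had medians of 0.38, 0.28 and 0.29. MEF was the lowest of the 4 arrays for 44 of the 59 members measured on at least 1 array (74.6%), beside 45.0% of all genes. Kif13b and Kif21a were not well above background on any array and enter no comparison.

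Among the mitotic kinesins, 10 of 12 exceeded their MEF level by 2-fold or more in ES and 1 was lower, with a median log2 difference of 2.28. The counts were 10 higher and 1 lower of 12 in PM2i-iPSC (median 1.56) and 10 higher and 2 lower of 13 in OM2i-iPSC (median 1.80). The shares over all genes were 36.4% higher and 24.2% lower in ES, 37.7% and 26.1% in PM2i-iPSC, and 40.0% and 25.4% in OM2i-iPSC. Relative to the median of all genes, the mitotic kinesin median was 1.41 higher in OM2i-iPSC, 1.28 in PM2i-iPSC and 1.99 in ES. With no filter on dim probes these relative values were 0.91, 0.84 and 1.60, and with the mean over all probes of a gene 1.05, 0.96 and 1.58.

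Kif15, a motor that helps Kif11 keep the spindle bipolar, had levels of 0.35 in OM2i-iPSC, 0.05 in PM2i-iPSC and -0.81 in ES, against -5.24 in MEF. By this probe all 3 pluripotent arrays lay far above MEF, by 48.1-fold, 39.0-fold and 21.5-fold. Another Kif15 probe read -1.86, -1.20 and -0.21 in OM2i-iPSC, PM2i-iPSC and ES, against -2.77 in MEF, and gave 1.88-fold, 2.97-fold and 5.87-fold, so the direction is shared and the size is not. Kif18a, which shortens kinetochore microtubules and dampens chromosome oscillation, stood at -3.0, -3.74 and -1.17 in OM2i-iPSC, PM2i-iPSC and ES, against -6.17 in MEF. It exceeded MEF by 9.04-fold in OM2i-iPSC, 5.41-fold in PM2i-iPSC and 32.0-fold in ES, which put both iPSC arrays between ES and MEF. Kif22 stood at 1.88, 2.09 and 2.01 in OM2i-iPSC, PM2i-iPSC and ES, against -1.19 in MEF. The pluripotent arrays were within 1.15-fold of each other for this gene and 8.40-fold to 9.67-fold above MEF. Kifc1, a minus-end motor that clusters spindle poles, stood at 0.99, 1.53 and 1.0 in OM2i-iPSC, PM2i-iPSC and ES, against -2.19 in MEF, or 9.03-fold to 13.1-fold higher. Another Kifc1 probe read -1.46, -0.60 and -0.21 in OM2i-iPSC, PM2i-iPSC and ES, against -2.81 in MEF, so the direction is shared. The Kifc1 accession is now Kifc5b in RefSeq, and Kifc5c on the array is now a pseudogene, so signal of these near-identical copies cannot be separated. Both are counted among the mitotic kinesins.

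Kif11, whose promoter is shown above, exceeded MEF by 3.18-fold in OM2i-iPSC, 4.13-fold in PM2i-iPSC and 3.90-fold in ES. Kif2c, the centromere depolymerase, was 2.30-fold, 2.44-fold and 4.91-fold higher. Kif4, which binds chromosomes and the midzone, was 3.47-fold, 2.16-fold and 4.81-fold higher, and Kif20a, which acts in cytokinesis, 2.28-fold, 2.29-fold and 4.30-fold. For these last 3 genes ES was the highest array. Kif14, a cytokinesis motor, was 1.38-fold, 3.07-fold and 2.59-fold higher in OM2i-iPSC, PM2i-iPSC and ES. Other probes of Kif11, Kif4, Kif20a and Kif14 gave the same direction and other sizes. The other Kif11 probes read 5.78-fold, 6.49-fold and 10.1-fold higher, and 1.56-fold, 1.13-fold and 1.17-fold higher, in OM2i-iPSC, PM2i-iPSC and ES. Another Kif4 probe read 1.10-fold higher in OM2i-iPSC, 1.37-fold in PM2i-iPSC and 3.65-fold in ES. Another Kif20a probe read 1.56-fold and 1.53-fold higher in the iPSC arrays and 3.35-fold in ES. Another Kif14 probe read 4.19-fold, 6.06-fold and 6.27-fold higher. Kif2b was well above background in OM2i-iPSC alone, where it exceeded MEF by at least 8.03-fold.

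Kif23, and Kif2a by its brightest probe, ran the other way. Kif23 stood at -0.99, -0.07 and -2.20 in OM2i-iPSC, PM2i-iPSC and ES, against 0.01 in MEF, so that ES was 4.64-fold below MEF while PM2i-iPSC was within 1.06-fold of it. Its second probe read -1.21, -0.71 and -3.0 in OM2i-iPSC, PM2i-iPSC and ES, against -0.16 in MEF. Both probes therefore placed ES lowest and MEF highest. Each probe spans more genome than its own 60 bases, at chr9:61946494-61947614 for the brightest and chr9:61946253-61946493 for the second, both on the minus strand in mm7. They are printed because they give the one mitotic kinesin that was lower in ES by both its probes, with no part in capitals.
Kif23, brightest probe: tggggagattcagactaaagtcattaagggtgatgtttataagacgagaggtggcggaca
Kif23, second probe: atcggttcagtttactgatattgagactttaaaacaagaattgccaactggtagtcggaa

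Kif2a, a depolymerase of spindle poles that also trims microtubules in neurons, stood at 2.26, 2.38 and 2.75 in OM2i-iPSC, PM2i-iPSC and ES, against 3.64 in MEF. It was 2.59-fold, 2.39-fold and 1.85-fold lower than in MEF. Another Kif2a probe read -2.82, -2.77 and -1.30 in OM2i-iPSC, PM2i-iPSC and ES, against -2.30 in MEF, so it was 1.44-fold and 1.39-fold lower in the iPSC arrays and 2.0-fold higher in ES. One more read 3.20-fold lower in PM2i-iPSC and 1.05-fold lower in ES. The Kif2a probes thus share a direction in the iPSC arrays and not in ES.

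**Figure D1:**
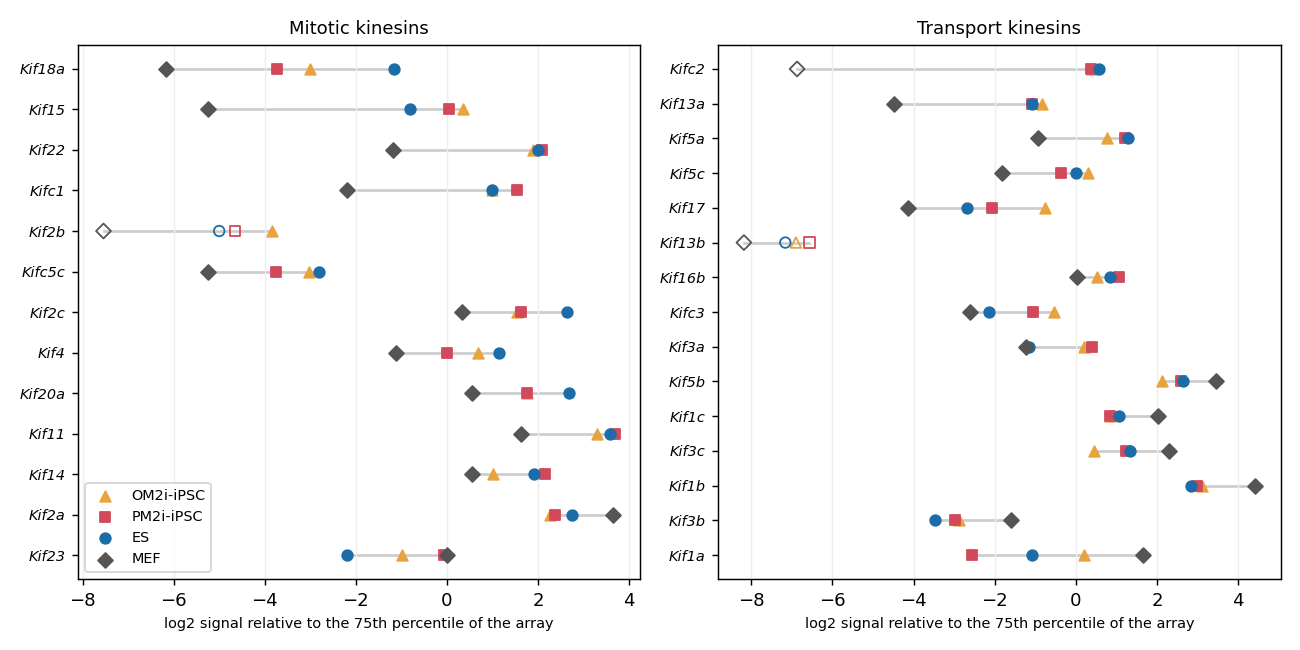
Levels of 13 mitotic kinesins (left) and 15 transport kinesins (right), as log2 signal relative to the 75th percentile of the array, 1 marker per array and gene (triangles OM2i-iPSC, squares PM2i-iPSC, circles ES, diamonds MEF, open where the probe was not well above background). Genes run from the widest positive to the widest negative difference of ES minus MEF. MEF is the lowest array for 11 of 13 mitotic kinesins, while for transport kinesins it is the lowest for 8 and the highest for 6 of the 14 that were measured. Over all genes MEF was the lowest array for 45.0% and the highest for 34.1%, so the transport counts are not far from these shares. Levels of different genes come from different probes and are not to be ranked.

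Centromere proteins followed the mitotic kinesins: 10 of 14 exceeded their MEF level by 2-fold or more in ES and 0 were lower, with a median log2 difference of 1.83. The counts were 9 higher and 0 lower in PM2i-iPSC and 10 higher and 1 lower in OM2i-iPSC, with a median of 1.53 in each. Over all genes the shares were 36.4% higher and 24.2% lower in ES, 37.7% and 26.1% in PM2i-iPSC, and 40.0% and 25.4% in OM2i-iPSC. Cenpm, a subunit of the inner kinetochore network that sits on centromeric chromatin, stood at 0.28, -0.31 and -0.52 in OM2i-iPSC, PM2i-iPSC and ES, against -5.80 in MEF. It had the widest difference of the list, 67.6-fold, 45.1-fold and 38.9-fold. Cenpl, another subunit of that network, stood at 0.32, 0.20 and 0.40 in OM2i-iPSC, PM2i-iPSC and ES, against -2.59 in MEF, or 6.92-fold to 7.96-fold higher. Cenpp, one more subunit, stood at 3.14, 3.09 and 3.44 in OM2i-iPSC, PM2i-iPSC and ES, against 0.36 in MEF, or 6.64-fold to 8.44-fold higher. By these probes the 3 pluripotent arrays lay within 1.27-fold of each other for Cenpl and Cenpp. Another Cenpp probe read -3.28, -3.88 and -2.31 in OM2i-iPSC, PM2i-iPSC and ES, against -6.37 in MEF. By that probe both iPSC arrays lay below ES, and PM2i-iPSC was lower by 2-fold or more.

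Cenpf, a large protein of the outer kinetochore, stood at 1.04, 2.03 and 2.71 in OM2i-iPSC, PM2i-iPSC and ES, against -0.72 in MEF. It exceeded MEF by 3.39-fold, 6.73-fold and 10.8-fold, with OM2i-iPSC 3.19-fold below ES. A second Cenpf probe read -4.36 in OM2i-iPSC and was not well above background on any other array, so the order of OM2i-iPSC and ES is not settled. Cenpi, which is needed to load new centromeric histone, exceeded MEF by 16.5-fold, 6.76-fold and 7.55-fold, with OM2i-iPSC the highest array. Cenph, Cenpk, Cenpo, Cenpq and Cenpc1, which are also inner kinetochore proteins, were 2.59-fold to 4.71-fold higher in ES and 1.54-fold to 4.83-fold higher in the iPSC arrays. Cenpe, which carries the Cenp name but is itself a kinesin motor that brings chromosomes to the spindle equator, was 2.89-fold, 1.44-fold and 1.72-fold higher in OM2i-iPSC, PM2i-iPSC and ES. Its other probes read 10.8-fold higher and 1.52-fold lower in PM2i-iPSC, and 3.95-fold higher and 1.12-fold lower in ES, so these are not settled. One of the 3 Cenpk probes read 1.24-fold lower in ES. Cenpt was 1.78-fold higher in OM2i-iPSC and 1.36-fold higher in ES than in MEF, and 1.03-fold lower in PM2i-iPSC.

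In ES, Cenpa, Cenpb, Cenpe and Cenpt were the centromere genes within 2-fold of MEF. Cenpa, the histone variant that defines the centromere, stood at 0.45, 1.20 and 2.08 in OM2i-iPSC, PM2i-iPSC and ES, against 1.66 in MEF. ES was 1.34-fold above MEF, whereas PM2i-iPSC was 1.38-fold and OM2i-iPSC 2.32-fold below it. Cenpb, which binds a short motif in centromeric repeats, stood at -1.55, -0.98 and -2.44 in OM2i-iPSC, PM2i-iPSC and ES, against -2.14 in MEF, so PM2i-iPSC was 2.24-fold above MEF and ES 1.24-fold below it.

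Among mitotic kinases and Bub genes 7 of 10 exceeded their MEF level by 2-fold or more in ES and 1 was lower, with a median log2 difference of 1.64. The counts were 7 and 1 in PM2i-iPSC (median 1.76) and 6 and 1 in OM2i-iPSC (median 1.13). All genes had shares of 36.4% higher and 24.2% lower in ES, 37.7% and 26.1% in PM2i-iPSC, and 40.0% and 25.4% in OM2i-iPSC. Aurka, which matures spindle poles, stood at 0.02, 0.82 and 1.06 in OM2i-iPSC, PM2i-iPSC and ES, against -1.17 in MEF, and was 2.27-fold, 3.97-fold and 4.69-fold higher. Aurkb, the kinase of the chromosomal passenger complex that corrects faulty attachments, stood at -1.09, -0.80 and 0.14 in OM2i-iPSC, PM2i-iPSC and ES, against -2.64 in MEF, and was 2.94-fold, 3.60-fold and 6.89-fold higher. The same order of the 4 arrays, ES highest and OM2i-iPSC lowest of the pluripotent ones, held for both kinases. Aurkc, the Aurora kinase best known from germ cells and early embryos, stood at -2.16, -2.46 and -1.74 in OM2i-iPSC, PM2i-iPSC and ES, against -2.10 in MEF, and no array was 2-fold from MEF.

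Bub1 stood at 2.30, 2.22 and 2.64 in OM2i-iPSC, PM2i-iPSC and ES, against -0.12 in MEF, and was 5.05-fold to 6.77-fold higher. Bub1b, which encodes the checkpoint protein BubR1, stood at 2.34, 2.54 and 2.33 in OM2i-iPSC, PM2i-iPSC and ES, against -0.93 in MEF, and was 9.59-fold to 11.1-fold higher. The pluripotent arrays were within 1.34-fold of each other for Bub1 and within 1.15-fold for Bub1b. Bub3, their shared adaptor, stood at 2.95, 2.16 and 2.74 in OM2i-iPSC, PM2i-iPSC and ES, against 2.21 in MEF, and no array was 2-fold from MEF by this probe. A second Bub3 probe was likewise within 2-fold of MEF, and another read 3.35-fold, 3.70-fold and 3.43-fold higher.

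The 4 Polo-like kinases showed 3 patterns. Plk1 stood at 2.13, 2.74 and 2.69 in OM2i-iPSC, PM2i-iPSC and ES, against 1.07 in MEF, and was 2.09-fold, 3.20-fold and 3.08-fold higher. Plk4, which starts centriole duplication, stood at -0.11, 0.66 and 0.66 in OM2i-iPSC, PM2i-iPSC and ES, against -1.0 in MEF, and was 1.86-fold, 3.16-fold and 3.17-fold higher. By these probes MEF was thus lowest and OM2i-iPSC next for Plk1 and Plk4. Other Plk4 probes put OM2i-iPSC 3.49-fold and at least 15.1-fold above MEF. The former read -4.17, -3.52 and -2.15 in OM2i-iPSC, PM2i-iPSC and ES, and the latter -2.93, -3.69 and -4.34. Their orders are opposite, so the order of the pluripotent arrays is not settled for Plk4. Plk3, a stress-responsive kinase, stood at -0.14, -0.86 and -1.81 in OM2i-iPSC, PM2i-iPSC and ES, against -3.22 in MEF, and was 8.49-fold, 5.13-fold and 2.66-fold higher, so that OM2i-iPSC rather than ES was the highest array. Plk2 stood at 1.19, 1.29 and 1.33 in OM2i-iPSC, PM2i-iPSC and ES, against 4.90 in MEF. Its promoter above holds neither motif, and neither do those of Plk3 and Plk4, which were higher than in MEF. Plk2 was 13.0-fold, 12.2-fold and 11.8-fold lower than in MEF, the widest negative difference of any kinase in the list, and the 3 pluripotent arrays lay within 1.10-fold of each other.

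**Figure D2:**
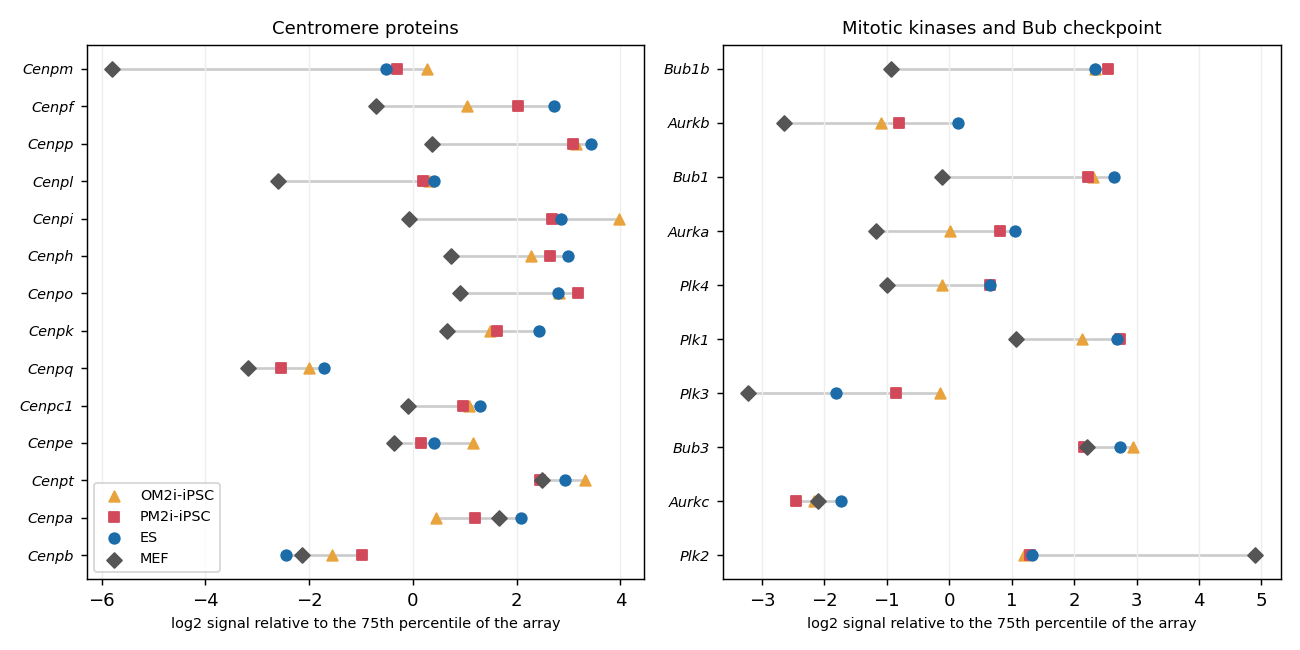
Levels of 14 centromere proteins (left) and 10 mitotic kinases and Bub genes (right) on the 4 arrays, as log2 signal relative to the 75th percentile of the array, 1 marker per array and gene, with genes in order of ES minus MEF. MEF is the lowest array for 11 of 14 centromere proteins and 7 of 10 kinases and Bub genes, beside 45.0% of all genes. Plk2 is the gene for which MEF, at 4.90, lies far to the right of the other 3 arrays.

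Cenpj, a centriole assembly protein despite its name, stood at 1.5, 1.70 and 1.77 in OM2i-iPSC, PM2i-iPSC and ES, against 0.53 in MEF, or 1.96-fold to 2.37-fold higher. Aurkaip1, a protein that binds Aurora A, stood at 3.24, 3.60 and 3.58 in OM2i-iPSC, PM2i-iPSC and ES, against 2.58 in MEF, or 1.57-fold to 2.02-fold higher.

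Transport kinesins lay on both sides of the fibroblast level. Of 14 measured, 5 lay above MEF and 3 below it by 2-fold or more in ES, 8 above and 5 below in PM2i-iPSC, and 7 above and 6 below in OM2i-iPSC. The ES counts are close to the shares over all genes, 36.4% higher and 24.2% lower. Those shares were 37.7% and 26.1% in PM2i-iPSC and 40.0% and 25.4% in OM2i-iPSC. The median log2 differences were 0.96, 1.24 and 0.29 in OM2i-iPSC, PM2i-iPSC and ES, which is 0.58, 0.96 and 0.00 relative to the median of all genes. On that measure mitotic kinesins had 1.28 in PM2i-iPSC and 1.99 in ES, so the lists were closer in PM2i-iPSC than in ES. With the mean over all probes of a gene, the ES values were 0.21 for transport and 1.58 for mitotic kinesins. In PM2i-iPSC that mean lowered the mitotic value to 0.96 and raised the transport median above 1.24, so the contrast was not settled there. With each array centred on its median the transport median itself became -0.27 in ES, where all genes also had -0.27. With quantile normalization it was -0.05, where all genes had 0.14. Relative to all genes these are 0.00 and -0.19, so the sign of the transport median moved with the scaling of the whole array.

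The conventional kinesin heavy chains separated by family member. Kif5a, an isoform found mainly in neurons, stood at 0.77, 1.22 and 1.29 in OM2i-iPSC, PM2i-iPSC and ES, against -0.94 in MEF, and was 3.26-fold to 4.69-fold higher. Kif5c, also mainly neuronal, stood at 0.29, -0.37 and 0.00 in OM2i-iPSC, PM2i-iPSC and ES, against -1.81 in MEF, and was 2.72-fold to 4.31-fold higher. Kif5b, the isoform of most tissues, was 2.54-fold, 1.81-fold and 1.77-fold lower in OM2i-iPSC, PM2i-iPSC and ES than in MEF. A second Kif5b probe read -1.55, -2.36 and -1.37 in OM2i-iPSC, PM2i-iPSC and ES, against -2.17 in MEF, which is 1.54-fold higher, 1.14-fold lower and 1.74-fold higher. All 3 pluripotent arrays lay above MEF for the neuronal isoforms, and the direction for Kif5b is not settled by these arrays.

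Kifc2, a minus-end motor described in neurons, had the widest difference of the list. It stood at 0.39, 0.37 and 0.58 in OM2i-iPSC, PM2i-iPSC and ES and was not well above background in MEF, so it was at least 151-fold, 149-fold and 173-fold higher. Kif13a, which carries endosomes and Golgi vesicles, stood at -0.84, -1.09 and -1.09 in OM2i-iPSC, PM2i-iPSC and ES, against -4.48 in MEF, and was 10.5-fold to 12.5-fold higher. By these probes the pluripotent arrays were within 1.20-fold of each other for both genes. Another Kif13a probe read -0.40, -0.48 and -2.35 in OM2i-iPSC, PM2i-iPSC and ES, against -4.68 in MEF, so ES was 5.01-fold above MEF and the iPSC arrays 3.89-fold and 3.67-fold above ES. Kif17, a dendritic and ciliary motor, stood at -0.77, -2.07 and -2.68 in OM2i-iPSC, PM2i-iPSC and ES, against -4.13 in MEF, and was 10.3-fold, 4.17-fold and 2.74-fold higher. Kifc3, a minus-end motor of epithelial junctions, stood at -0.54, -1.07 and -2.13 in OM2i-iPSC, PM2i-iPSC and ES, against -2.62 in MEF, and was 4.22-fold, 2.93-fold and 1.40-fold higher. For Kif17 and Kifc3 both iPSC arrays lay above ES by these probes, and OM2i-iPSC was the highest. Another Kif17 probe read 2.62-fold higher in OM2i-iPSC, 1.29-fold lower in PM2i-iPSC and 1.67-fold lower in ES than in MEF. By another Kifc3 probe ES exceeded MEF by 3.53-fold, and OM2i-iPSC lay 1.07-fold below ES.

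The Kif3 genes encode a heterotrimeric motor of cilia and axons in which Kif3a pairs with Kif3b or Kif3c. Kif3a stood at 0.19, 0.40 and -1.15 in OM2i-iPSC, PM2i-iPSC and ES, against -1.24 in MEF, so the iPSC arrays were 2.69-fold and 3.13-fold above MEF and ES was within 1.06-fold of it. Kif3c stood at 0.44, 1.23 and 1.33 in OM2i-iPSC, PM2i-iPSC and ES, against 2.30 in MEF, and was 3.62-fold, 2.10-fold and 1.96-fold lower. Kif3b stood at -2.89, -2.97 and -3.48 in OM2i-iPSC, PM2i-iPSC and ES, against -1.61 in MEF, by its brightest probe, and was 2.44-fold to 3.66-fold lower. A second Kif3b probe read -4.22, -4.13 and -4.70 in OM2i-iPSC, PM2i-iPSC and ES, against -5.77 in MEF, which is 2.91-fold, 3.11-fold and 2.09-fold higher. The direction for Kif3b is therefore not settled by these arrays. The probes lie at chr2:153073501-153073560 for the brightest and chr2:153072175-153072234 for the other, both on the plus strand in mm7.

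Kif1b, which carries mitochondria and synaptic vesicle precursors, stood at 3.1, 2.99 and 2.84 in OM2i-iPSC, PM2i-iPSC and ES, against 4.41 in MEF, and was 2.48-fold to 2.97-fold lower by this probe. All 4 Kif1b probes were lower in ES than in MEF, by 1.40-fold to 3.15-fold, whereas in the iPSC arrays 1 of the 4 read higher, 1.44-fold in OM2i-iPSC and 1.74-fold in PM2i-iPSC. Kif1c, a vesicle motor, was 2.26-fold, 2.25-fold and 1.93-fold lower by its brightest probe, and another of its probes read 3.45-fold, 3.49-fold and 1.58-fold higher. Kif1a, the axonal motor of synaptic vesicle precursors, had probes that disagreed. Its brightest probe read 0.20, -2.57 and -1.08 in OM2i-iPSC, PM2i-iPSC and ES, against 1.65 in MEF, so it was 2.73-fold, 18.5-fold and 6.62-fold lower. A second probe read 0.28, -0.48 and -0.21 in OM2i-iPSC, PM2i-iPSC and ES, against -3.94 in MEF, which is 18.7-fold, 11.0-fold and 13.3-fold higher. The probes therefore went in opposite directions against MEF, and both placed OM2i-iPSC above ES and PM2i-iPSC below it, the second probe by a log2 difference of 0.49 for OM2i-iPSC and -0.27 for PM2i-iPSC.

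Kif16b, a motor of early endosomes, showed a split between probes that is described after its values were seen. Its brightest probe, at chr2:142359834-142359893 on the minus strand of mm7, read 0.52, 1.06 and 0.85 in OM2i-iPSC, PM2i-iPSC and ES, against 0.02 in MEF, and no array was more than 2.05-fold above MEF. A second probe spans chr2:142590848-142594527 on the same strand. It read 1.22 in OM2i-iPSC and 1.35 in PM2i-iPSC, against -4.46 in ES, and was not well above background in MEF. By that probe OM2i-iPSC was 51.1-fold and PM2i-iPSC 55.9-fold above ES, and they were at least 269-fold and at least 294-fold above MEF. The spanning probes of Kif16b and of Kif1a are printed because they carry values that the brightest probes of these genes do not share, with no part in capitals. The Kif1a probe spans chr1:92927766-92928283 of mm7 on the minus strand, and the brightest Kif1a probe lies at chr1:92923344-92923403 on that strand.
Kif16b, spanning probe: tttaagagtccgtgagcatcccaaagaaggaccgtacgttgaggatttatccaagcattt
Kif1a, spanning probe: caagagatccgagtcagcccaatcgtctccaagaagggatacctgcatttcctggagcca

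**Figure D3:**
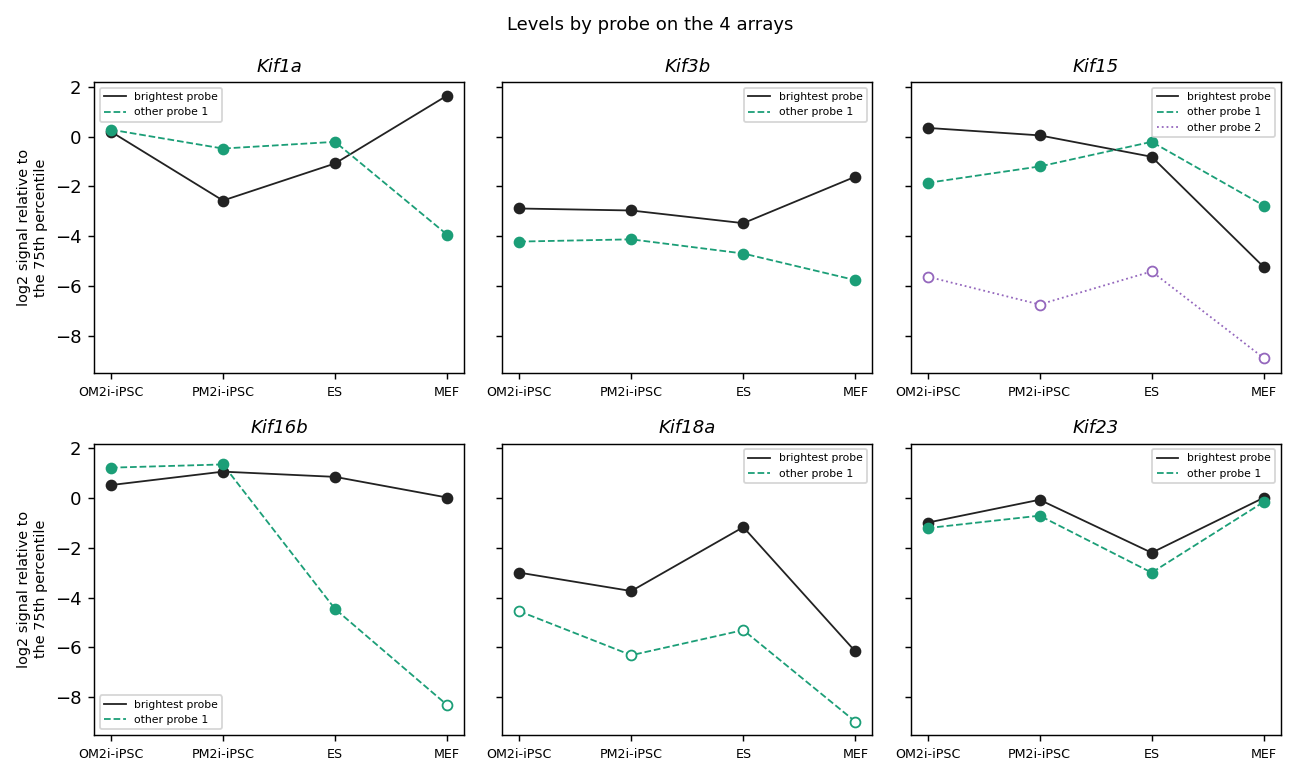
Levels of every probe of 6 members on the 4 arrays (OM2i-iPSC, PM2i-iPSC, ES and MEF from left to right), as log2 signal relative to the 75th percentile of the array, with 1 line per probe and open points where the probe was not well above background. The probes of Kif23 run in parallel, the probes of Kif1a cross between ES and MEF, those of Kif3b move apart there, and the second probe of Kif16b is high on both iPSC arrays (1.22 and 1.35) and low in ES (-4.46). Kif1a, Kif3b, Kif15, Kif18a and Kif23 were named by rule, and Kif16b once its values were known.

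Probes of a gene were compared in general as well. Of 40 members with several probes, 30 had at least 2 probes with a fold in ES against MEF. In 21 of the 30 all probes had the same sign, in 14 all differed by 2-fold or more the same way, and Kif1a and Kif3b were the genes with probes that did so in opposite directions. In 13 of the 30 another probe gave a different 2-fold call from the brightest one, as in 13 of 28 for PM2i-iPSC and 17 of 31 for OM2i-iPSC against MEF. The calls of such genes depend on the probe. Counted by probe, 85 of 105 member probes were higher in ES than in MEF. Counted by gene, 49 of the 59 members measured on at least 1 of the 4 arrays were. Both counts take in signals not well above background, and no share over all genes was counted that way. Without the filter on dim probes, 68.7% of the 2-fold calls over all genes were higher in ES, against 60.1% with it. Among members with a fold in ES against MEF, 47 of 57 were higher, beside 11203 of 20185 of all genes.

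Markers of neurons went both ways. The median level of 10 neuron markers was -0.61, -3.17 and -1.93 in OM2i-iPSC, PM2i-iPSC and ES, against -5.17 in MEF, and 9, 7, 9 and 9 of them were well above background on these arrays. Against MEF, 6 of the 9 with a fold were higher by 2-fold or more in OM2i-iPSC and 1 lower, 4 and 2 of 7 in PM2i-iPSC, and 5 and 2 of 9 in ES. Of all genes, 40.0% were higher and 25.4% lower in OM2i-iPSC, 37.7% and 26.1% in PM2i-iPSC, and 36.4% and 24.2% in ES. The higher markers included Elavl3 and Rbfox3, and Map2 was lower in all 3 pluripotent arrays. Map2 stood at -4.03, -3.91 and -4.39 in OM2i-iPSC, PM2i-iPSC and ES, against -2.70 in MEF. Tubb3 stood at -1.03, -2.43 and -1.90 in OM2i-iPSC, PM2i-iPSC and ES, against -0.99 in MEF. Stmn2 stood at 1.90, 0.72 and 0.12 in OM2i-iPSC, PM2i-iPSC and ES, against 1.21 in MEF. A few markers were thus far above MEF while these 3 were near or below it. Syp stood at 2.62, -1.07 and 2.58 in OM2i-iPSC, PM2i-iPSC and ES, against -5.10 in MEF. Nefl stood at -0.18 in OM2i-iPSC and -1.96 in ES, against -5.36 in MEF, and was not well above background in PM2i-iPSC. The markers not well above background were Dcx in OM2i-iPSC, Snap25, Dcx and Nefl in PM2i-iPSC, Dcx in ES and Syt1 in MEF. Their levels ran between -5.61 and 2.67 in OM2i-iPSC, -5.12 and 2.16 in PM2i-iPSC, -5.29 and 2.58 in ES and -6.96 and 1.21 in MEF. The part of these markers in the values of Kif5a, Kif5c, Kifc2, Kif17 and Kif1a was not tested.

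The kinesins of cilia, signalling and other roles were mostly dim. Among the 5 of 7 with a fold in ES against MEF, 3 lay above MEF by 2-fold or more and 0 below, beside 36.4% and 24.2% of all genes. Kif24, which restrains cilium growth at the mother centriole, stood at 3.66, 2.15 and 1.17 in OM2i-iPSC, PM2i-iPSC and ES, against 0.22 in MEF, and was 10.8-fold, 3.79-fold and 1.92-fold higher. Kif7, a regulator of Hedgehog signalling at the tip of the cilium, stood at -3.84 in PM2i-iPSC and -3.16 in ES, against -3.36 in MEF, and was not well above background in OM2i-iPSC, where it was at least 2.37-fold lower than in MEF. By these probes the iPSC arrays differed from ES in opposite senses for these 2 genes, with Kif24 above and Kif7 below the ES level. The other Kif24 probe was well above background in ES and on no other array. Kif21b, a neuronal motor that restrains microtubule growth, stood at -1.35, -0.09 and -0.35 in OM2i-iPSC, PM2i-iPSC and ES, against -1.94 in MEF, and was 1.51-fold, 3.61-fold and 3.02-fold higher. Other Kif21b probes read 2.76-fold, 1.73-fold and 1.95-fold higher, and 5.5-fold, 12.5-fold and 7.22-fold higher. Kif12, best known from kidney and liver, stood at -4.03, -2.71 and -4.0 in OM2i-iPSC, PM2i-iPSC and ES, against -6.76 in MEF, where it is a bound, and was at least 6.64-fold, at least 16.5-fold and at least 6.76-fold higher. Kif9, a motor of motile cilia, stood at -4.41 in ES, against -5.86 in MEF, 2.74-fold higher, and was not well above background in either iPSC array. Kif27, a relative of Kif7, exceeded MEF by 4.89-fold in OM2i-iPSC by its brightest probe, which lies on the plus strand of mm7 and was well above background on those arrays alone. Its other probe lies on the minus strand, as its RefSeq promoter does, and was well above background in PM2i-iPSC alone, at least 7.64-fold above MEF. The level of Kif27 is therefore not settled by these arrays. The median of 10 motile cilia markers was -2.56, -3.35 and -2.40 in OM2i-iPSC, PM2i-iPSC and ES, against -4.63 in MEF, and its part in these values was not tested.

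Lists of 38 other mitotic genes and 16 partners of transport kinesins gave these counts. Of other mitotic genes (kinetochore, checkpoint, cohesion and cyclin genes), 22 of 37 lay above and 3 below MEF by 2-fold or more in ES, 21 and 4 of 38 in PM2i-iPSC and 16 and 4 of 38 in OM2i-iPSC, with medians of 0.58 in OM2i-iPSC, 1.11 in PM2i-iPSC and 1.33 in ES. The OM2i-iPSC count is near the 40.0% of all genes that were higher. The widest differences of ES against MEF were those of Oip5 (39.3-fold), Knl1 (39.1-fold), Ttk (33.9-fold) and Spc24 (21.0-fold). Oip5 is part of the complex that loads Cenpa, Knl1 and Spc24 build the outer kinetochore, and Ttk is the kinase that starts the checkpoint. Of 16 partners of transport kinesins (light chains, adaptors and mitochondrial anchors), 1 lay above and 6 below MEF by 2-fold or more in ES, 1 and 6 in PM2i-iPSC and 3 and 4 in OM2i-iPSC, with medians of -0.44 in OM2i-iPSC, -0.84 in PM2i-iPSC and -0.13 in ES, where the transport kinesins had positive medians. For both lists the shares over all genes were 36.4% above and 24.2% below in ES, 37.7% and 26.1% in PM2i-iPSC, and 40.0% and 25.4% in OM2i-iPSC. Mapk8ip2, a neuronal scaffold that binds kinesin light chains, was the partner that was higher, by 37.3-fold in ES, and Klc3 and Bicd2 were 4.26-fold and 4.10-fold lower.

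The iPSC arrays were within 2-fold of ES for most members, as they were for most genes of the array. In PM2i-iPSC against ES 5 of 57 members were higher and 4 lower by 2-fold or more, and 48 were within 2-fold, where 14.6% and 11.8% of all genes were higher and lower (26.3% together). In OM2i-iPSC against ES 10 were higher and 7 lower of 59, and 42 were within 2-fold, where the shares over all genes were 21.2% and 14.0% (35.2% together). These splits turned with the scaling, to 4 higher and 6 lower in PM2i-iPSC and 7 higher and 12 lower in OM2i-iPSC when each array was centred on its median. Of the 2-fold calls over all genes, 49.8% and 48.5% were then higher, against 55.4% and 60.3% before. At 4-fold, 1 member was higher and 1 lower in PM2i-iPSC (3.93% and 2.34% over all genes), and 1 was higher and 0 lower in OM2i-iPSC (6.20% and 3.11%). Both comparisons share the ES array. The median difference over the members was -0.20 in OM2i-iPSC and -0.10 in PM2i-iPSC, where the medians of all genes were 0.05 and -0.04.

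The members lower in PM2i-iPSC than in ES were Kif18a (5.91-fold), Kif1a by its brightest probe (2.80-fold), Kif4 (2.22-fold) and Kif2c (2.01-fold). Those higher were Kif23 (4.36-fold), Kif3a (2.95-fold), Cenpb (2.76-fold), Kif12 (2.44-fold) and Kifc3 (2.08-fold). The members lower in OM2i-iPSC than in ES were Kif18a (3.54-fold), Cenpf (3.19-fold), Cenpa (3.11-fold), Kif7 (at least 2.72-fold), Aurkb (2.34-fold), Kif2c (2.13-fold) and Aurka (2.06-fold). Those higher were Kif24 (5.64-fold), Kif17 (3.75-fold), Plk3 (3.19-fold), Kifc3 (3.01-fold), Kif3a (2.54-fold), Kif1a (2.43-fold), Kif23 (2.32-fold), Kif15 (2.24-fold), Kif2b (at least 2.23-fold) and Cenpi (2.18-fold). For Kif15 a second probe read 3.12-fold lower in OM2i-iPSC than in ES, so its direction in that comparison is not settled. There another probe gave a different 2-fold call from the brightest in 16 of 33 genes, Cenpf, Kif15, Kif1a, Kif24 and Kifc3 among them. In PM2i-iPSC against ES this held for 12 of 30 genes, Kif1a and Kifc3 among them. By list, 0 of 10 kinases and Bub genes were 2-fold from ES in PM2i-iPSC, and 1 higher and 2 lower in OM2i-iPSC. Of the other mitotic genes, 3 were higher and 11 lower of 38 in OM2i-iPSC against ES, with a median of -0.66. Over all genes 21.2% were higher and 14.0% lower in OM2i-iPSC against ES, and 14.6% and 11.8% in PM2i-iPSC against ES.

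Between the iPSC preparations, 5 of 58 members lay above and 3 below the PM2i-iPSC level by 2-fold or more in OM2i-iPSC, as did 17.3% and 12.8% of all genes (30.1% together). Those higher were Kif1a (6.79-fold by its brightest probe and 1.69-fold by the other), Kif24 (2.86-fold), Kif17 (2.46-fold), Cenpi (2.44-fold) and Cenpe (2.01-fold). Those lower were Kif12 (2.49-fold), Kif21b (2.38-fold) and Kif14 (2.22-fold). Another Cenpe probe read 3.75-fold lower, and another Kif21b probe 1.60-fold higher. At 4-fold 1 member was higher and 0 lower (4.47% and 3.45% over all genes). Centring on the median gave 4 higher and 5 lower, and quantile normalization 5 higher and 6 lower. Of the 2-fold calls over all genes, 49.7% and 52.2% were then higher, against 57.6% before. No comparison of the preparations with each other separates the agents, since each was 1 array on a slide the other did not share.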

How the data were processed

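Total RNA of 8 mouse samples was hybridised, 4 on Agilent and 4 on Affymetrix arrays. The 4 Affymetrix samples were not analysed here, since no table used here pairs their probe sets with genes. The Agilent files hold spot intensity that the authors deposited as scanner output, extracted with Agilent Feature Extraction 10.7.3.1 (ES, PM2i-iPSC, OM2i-iPSC) or 9.5.3.1 (MEF), per the file headers. The authors' deposited series table held the same intensity within 0.498%. Groups were taken from the titles, with 1 array each, so 6 comparisons were made with no test.

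For each probe the unflagged spots were averaged, without control spots, and log2 signal was expressed relative to the 75th percentile of the array (3461, 3531, 3160.1 and 1877 for OM2i-iPSC, PM2i-iPSC, ES and MEF). Gene names came from RefSeq by accession (22951 probes), symbol (6659) or older symbol (3109), and 8455 probes kept the file's name. Coordinates are those of the MEF file, whose header names mm7, and exon positions were not analysed here. The probe with the highest mean over the 4 arrays stood for a gene. A comparison took genes well above background on 1 or both arrays. A side that was not gave a bound, written "at least", from its own signal or the array's detection floor, whichever was higher (142, 147, 90.1 and 16.3 in the same order). The number of arrays limits the precision. The median scanner error of member probes was 10.0%.

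The members, lists and motifs were chosen with earlier results of these data known. Named by rule were all Aurk, Bub and Plk genes and Cenpa, the 4 widest differences per direction of ES against MEF and the 2 widest of each iPSC preparation against ES in each list, and genes whose probes opposed each other by 2-fold. Other members were named after their values were seen. Alternatives were median centring, quantile normalization, normexp with offset 50 (limma 3.58.1, R 4.3.3), the series table, the mean over probes, other filters and a 4-fold threshold. Normexp was planned on whatever signals the files hold, and median signals were used, because 3 of the 4 files hold no mean signal. The counting was tested on simulated data. Python 3.11.15, numpy 2.4.6 and pandas 2.3.3 were used.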

Additional observations from a re-analysis of the deposited data

Results flagged for a closer look

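Kif1a, the axonal motor of synaptic vesicle precursors, moved in opposite directions in the iPSC preparations. By its brightest probe the log2 difference from ES was 1.28 in OM2i-iPSC and -1.48 in PM2i-iPSC. The levels were 0.20 in OM2i-iPSC and -2.57 in PM2i-iPSC, against -1.08 in ES. The difference between the preparations was not tested, since each was 1 array. The second probe gave 0.49 in OM2i-iPSC and -0.27 in PM2i-iPSC, against the same ES array, and a spot SD of 0.268 applies to a difference.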

How the results depend on the processing

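No paired analysis was possible because each group was 1 array. Of the summary values, 183 held and 47 moved under an alternative, and of the values of single genes 818 held, 380 moved and 10 reversed. With each array centred on its median, the members lower were 9 in ES against MEF, 12 in OM2i-iPSC against ES and 5 in OM2i-iPSC against PM2i-iPSC. Over all genes the lower calls were then 7059, 3610 and 2915, against 4881, 2760 and 2509 in the main setting. The mitotic kinesin medians against MEF with that centring were 1.06 in OM2i-iPSC, 0.93 in PM2i-iPSC and 1.72 in ES, and the transport kinesin medians 0.22, 0.61 and -0.27. All genes then had -0.34 in PM2i-iPSC and -0.27 in ES. Quantile normalization gave 6, 4 and 6 members lower in OM2i-iPSC against MEF, PM2i-iPSC against MEF and OM2i-iPSC against PM2i-iPSC, and a transport median of -0.05 in ES against MEF. Normexp gave 3 lower and a transport median of 0.88 in PM2i-iPSC against MEF, and a mitotic median of 1.43 in OM2i-iPSC against MEF. The transport median of OM2i-iPSC against MEF was 0.50 with both arrays well above background and 1.27 with no filter. At 4-fold, the members apart, higher and lower were 25, 22 and 3 in ES against MEF, 21, 19 and 2 in PM2i-iPSC against MEF, 22, 21 and 1 in OM2i-iPSC against MEF, 2, 1 and 1 in PM2i-iPSC against ES, and 1, 1 and 0 in both OM2i-iPSC against ES and OM2i-iPSC against PM2i-iPSC, which is the stricter threshold itself.

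The mean over all probes of a gene gave 3 members lower in each comparison with MEF, 8 lower in PM2i-iPSC against ES, and 5 apart with 1 lower in OM2i-iPSC against PM2i-iPSC. The transport medians against MEF were then 1.44, 1.60 and 0.67 in OM2i-iPSC, PM2i-iPSC and ES, and 0.54 in OM2i-iPSC against ES. How far transport kinesins went both ways thus depended on whether that mean or the brightest probe was used. That mean reversed Kif1a to 0.50 in ES and 1.39 in OM2i-iPSC against MEF, Kif1c to 0.33 in PM2i-iPSC and 1.0 in OM2i-iPSC, Kif3b to 0.14 and 0.13, and Kif3c to 0.69 and 0.14 in the same order. It also reversed Kif15 to -0.23 in OM2i-iPSC against ES and Kif24 to -0.56 in OM2i-iPSC against PM2i-iPSC. The other probe of Kif3c was not well above background on any array, and the other probe of Kif24 was well above background in ES and on no other array. Beyond these probes the cause was not tested. Motifs on the given strand alone were in 33.3% of mitotic kinesin promoters. Signals near background limit the folds of 12 member probes that were not well above it on any array.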
